A study of Saccharomyces cerevisiae with 39 samples.

Results

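The 81 genes described here encode the proteins of the large (60S) ribosomal subunit of the budding yeast Saccharomyces cerevisiae. They were chosen by name: protein-coding features with a standard symbol of RPL, a number and, where there is one, a copy letter, together with the stalk genes RPP0, RPP1A, RPP1B, RPP2A and RPP2B. They are 81 of 8898 features counted in 39 RNA libraries, and no measured value entered the choice. Of them, 70 form 35 pairs of duplicated genes, a copy A and a copy B, and 11 are single-copy genes.

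Each ribosome needs a single copy of most of these proteins, and growing yeast cells keep their mRNAs among the most abundant ones they make. The activators Rap1, Fhl1, Ifh1 and Sfp1 drive these promoters together, and the genes are known to be switched down as a group under stress. The nuclear and cytoplasmic RNA exosome degrades and trims RNA, including precursors of ribosomal RNA and intron-containing pre-mRNA, and for a few ribosomal protein genes it also takes part in removing prematurely ended or unspliced transcripts.

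The series compared yeast strains with altered subunits of this exosome. In rrp4-G226D and its control RRP4, the plasmid supplies the cap subunit Rrp4 to MATα ura3Δ0 leu2Δ0 his3Δ1 lys2Δ0 rrp4Δ::NEO cells. In rrp40-W195R, rrp40-S87A and their control RRP40, it supplies the cap subunit Rrp40 to MATa ura3Δ0 leu2Δ0 his3Δ1 rrp40Δ::NEO cells. In rrp45-I15P and its control RRP45, it supplies the core subunit Rrp45 to MATα ura3Δ0 leu2Δ0 his3Δ1 rrp45Δ::NEO cells. In rrp46-L191H, rrp46-L127T, rrp46-Q86I and their control RRP46, it supplies the core subunit Rrp46 to MATα ura3Δ0 leu2Δ0 his3Δ1 lys2Δ0 rrp46Δ::kanMX4 cells. In rrp6Δ, MATa ura3Δ0 leu2Δ0 his3Δ1 met15Δ0 rrp6Δ::kanMX4 cells carry the plasmid without an insert, and the control RRP6 carries it with the gene for the nuclear exonuclease Rrp6. Every strain holds a LEU2 CEN6 pRS315 plasmid, so each missense allele is the only source of its subunit and is expressed from a plasmid, not from the chromosome. Another label names the background of all samples as BY4741 haploid, although BY4741 is MATa and the RRP4, RRP45 and RRP46 families are MATα. Cells were grown in medium without leucine and held at 37 °C for 5 h, so heat is common to all groups, controls included. The 8 mutant and 5 control groups had 3 libraries each, which the series calls biological triplicates, so a p-value measures the spread between those libraries.

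Libraries held between 17244127 and 53642418 counts, with a median of 35937895, and ribosomal RNA features took 2.50% to 4.53% of them. RRP6 averaged 3.37 CPM (counts relative to the total of the library, scaled by the trimmed mean of M values, TMM) in rrp6Δ and 635 CPM in RRP6. The mating type genes STE2 and STE3, and LYS2, MET17 and URA3, stood at the levels that the genotype labels call for. The missense changes cannot be checked from counts per gene, but the level of the altered subunit's own transcript can. RRP46 averaged 936 ± 50.1 CPM in rrp46-L191H, 476 ± 27.8 CPM in rrp46-L127T and 99.5 ± 13.6 CPM in rrp46-Q86I, against 561 ± 33.4 CPM in RRP46 (SD, n = 3 each). RRP4 averaged 583 ± 7.38 CPM in rrp4-G226D and 379 ± 12.5 CPM in RRP4. RRP40 averaged 328 ± 36.05 CPM in rrp40-W195R and 219.8 ± 13.5 CPM in rrp40-S87A, against 232 ± 22.3 CPM in RRP40. RRP45 averaged 379 ± 54.4 CPM in rrp45-I15P and 381 ± 38.3 CPM in RRP45. The libraries of rrp46-L191H, rrp46-L127T, rrp46-Q86I, rrp4-G226D and rrp40-W195R did not overlap with their controls in this transcript. These alleles thus differ from their controls in transcript level as well as in sequence. The part of that level in the results was not tested. Each control was itself high in the transcript of its own subunit. The highest mean in any other control was 44.3 CPM for RRP46, 73.2 CPM for RRP40, 108 CPM for RRP45 and 148 CPM for RRP6, all in the RRP4 group. For RRP4 it was 120 CPM, in the RRP6 group. The RRP46 transcript in rrp46-Q86I was thus below its control but above every other control group. Values are counts in a bulk library, so a lower level of one RNA per cell and a higher level of other RNA cannot be told apart, nor can spliced and unspliced RNA of the same gene.

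The copies of most pairs are closely similar, and the comparison of copies turns on reads that can be assigned to one of them. Coding bases matched at 68.9% (RPP1) to 99.4% (RPL1) of positions over the 35 pairs, with a median of 93.2%, and 12 pairs encode identical proteins. RPL8A and RPL8B matched at 95.1% of positions, and RPL15A and RPL15B at 93.2%. How reads that match both copies of a pair were counted is not given in the sources used here. The stretches of 60 coding bases in which those copies differ most are shown because the ratio of the RPL8 copies changed in opposite directions in different mutants and RPL15A is the gene with the largest fall. Capitals mark the bases that differ between the copies, and the sequences are from the RefSeq R64 genome, 5′ to 3′ on the coding strand.
RPL8A, chrVIII:35597-35656, minus strand: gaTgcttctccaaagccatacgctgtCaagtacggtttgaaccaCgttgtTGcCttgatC
RPL8B, chrXII:48201-48260, minus strand: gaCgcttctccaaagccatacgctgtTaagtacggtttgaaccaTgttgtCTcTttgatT
RPL15A, chrXII:201977-202036, minus strand: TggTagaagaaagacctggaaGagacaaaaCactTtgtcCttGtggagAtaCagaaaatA
RPL15B, chrXIII:509735-509794, minus strand: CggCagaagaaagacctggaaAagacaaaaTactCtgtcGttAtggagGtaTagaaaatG

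Introns are rare in yeast and common in this family. By the R64 annotation, 53 of the 81 genes (65.4%) have an intron, and 329 of 6021 protein-coding genes (5.46%) have a coding sequence in more than 1 piece. Their 55 introns were 147 to 561 bases long with a median of 407. The usual yeast start GTATGT opened 44 of the 55 introns, and 52 held the branch point motif TACTAAC. The introns of RPL22B and RPL30 are shown because splicing of these transcripts is known to be regulated, by Rpl22 and by Rpl30, and that of RPL18B because it is the gene with the largest rise among well-counted genes. The first bases of the intron, or the branch point motif, are in capitals.
RPL18B intron start, chrXIV:64431-64460, minus strand: ttcctagctcGTATGTattgaaatctccct
RPL18B branch point, chrXIV:64046-64075, minus strand: ctttatcccttTACTAACataacgtaaaaa
RPL22B intron start, chrVI:64901-64930, minus strand: ggctccaaacGTACGTtaattttcgttcct
RPL30 intron start, chrVII:439084-439113, plus strand: cgcagagatgGTCAGTataacatgatttta
The branch point adenosine lies 41 bases before the end of the RPL18B intron. RPL22B and RPL30 have starts other than GTATGT.

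As a group, the large subunit genes took a clearly smaller share of the RNA in 4 mutants. Summed over the 81 genes, their share of library counts was 3.52, 3.72 and 3.68% in rrp6Δ, against 5.51, 5.95 and 5.40% in RRP6. It was 4.76, 4.75 and 4.75% in rrp4-G226D, against 5.69, 5.72 and 5.87% in RRP4. Both mutants lay below all of their control libraries. The share was 5.13, 5.70 and 5.31% in rrp40-W195R and 6.65, 6.27 and 6.41% in rrp40-S87A, against 6.52, 6.79 and 6.81% in RRP40. It was 5.29, 5.15 and 5.21% in rrp46-L191H, 7.04, 6.69 and 6.68% in rrp46-L127T and 6.39, 6.49 and 6.64% in rrp46-Q86I, against 6.21, 6.22 and 6.44% in RRP46. It was 6.19, 6.25 and 6.19% in rrp45-I15P, against 6.43, 6.49 and 6.34% in RRP45. The rrp40-W195R and rrp46-L191H libraries also lay below all of their controls, rrp45-I15P lay just below, rrp40-S87A and rrp46-Q86I overlapped with theirs, and rrp46-L127T lay above.

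The mean share was 3.64 ± 0.102% in rrp6Δ and 5.62 ± 0.290% in RRP6 (SD, n = 3 each), a difference of -1.98 percentage points or -35.2% of the control. It was 4.76 ± 0.00446% in rrp4-G226D and 5.76 ± 0.0978% in RRP4 (SD, n = 3 each), a difference of -17.4%, and 5.38 ± 0.288% in rrp40-W195R and 6.71 ± 0.160% in RRP40 (SD, n = 3 each), a difference of -19.8%. It was 5.22 ± 0.0688% in rrp46-L191H and 6.29 ± 0.131% in RRP46 (SD, n = 3 each), a difference of -17.0%. The smaller differences were -3.93% for rrp40-S87A, -3.26% for rrp45-I15P, 8.17% for rrp46-L127T and 3.52% for rrp46-Q86I. The exact two-sided permutation test gave p = 0.1 wherever the groups did not overlap, which is the smallest p that 3 against 3 libraries allow, and p = 0.2 for rrp40-S87A and rrp46-Q86I. The genes of the small subunit, which share the same activators, took 2.79% to 2.98% of counts in rrp6Δ, against 4.47% to 5.03% in RRP6.

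**Figure D1:**
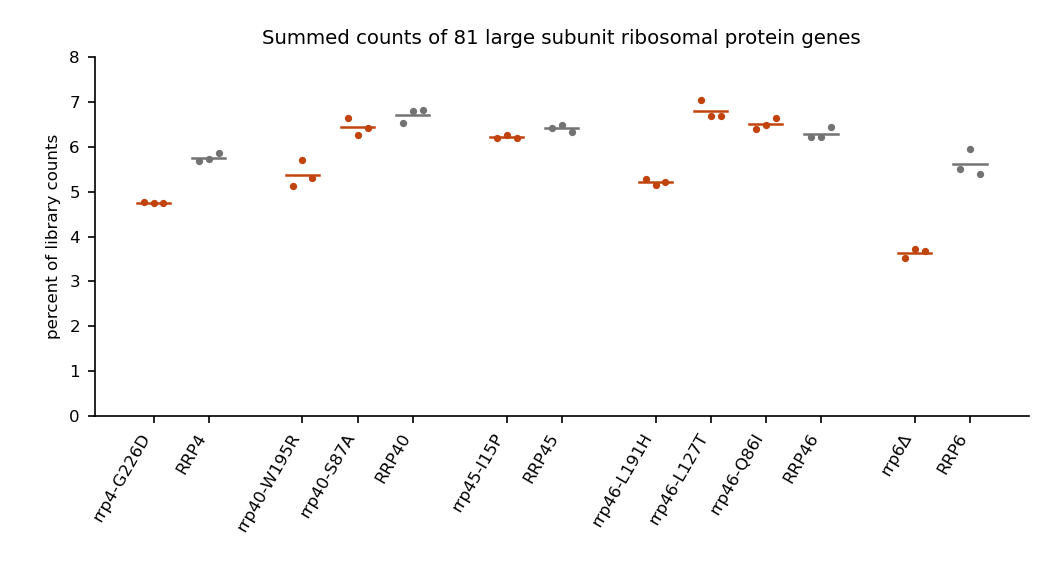
Share of library counts (%, vertical axis from 0) taken by the 81 large subunit ribosomal protein genes, 1 point per library with each mutant left of its control and bars at group means. The 3 rrp6Δ libraries lie between 3.52% and 3.72%, and every RRP6 library lies at 5.40% or above.

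Gene by gene, nearly the whole family moved together in those 4 mutants. In edgeR's quasi-likelihood test with Benjamini-Hochberg adjustment over all features, 79 of 81 genes were lower and 0 higher in rrp6Δ, where 40.9% of all features tested were called lower and 42.6% higher. In rrp46-L191H 72 were lower and 5 higher, against 31% and 31.4% of all features. In rrp40-W195R 73 were lower and 4 higher, against 26.5% and 26%. In rrp4-G226D 74 were lower and 2 higher, against 35.9% and 36.1%. These 4 comparisons share no libraries, and 70 of the 81 genes were lower in all 4, as were 12.3% of the features tested in all 4.

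The median log2 fold change over the genes was -1.19 in rrp6Δ, -0.42 in rrp46-L191H, -0.58 in rrp4-G226D and -0.60 in rrp40-W195R. The spread between genes was narrow beside that of the transcriptome: the interquartile range of the log2 fold changes was 0.301 against 1.16 over all features in rrp6Δ, and 0.207 against 0.531 in rrp46-L191H. In rrp40-W195R it was 0.236 against 0.533, and in rrp4-G226D 0.133 against 0.685. Scaling by library totals in place of TMM moved the median of all features up by 0.60 in rrp6Δ, 0.17 in rrp46-L191H, 0.33 in rrp4-G226D and 0.33 in rrp40-W195R. The family's median minus that of all features was -1.22, -0.42, -0.60 and -0.63 in the same order. Scaling shifts all features of a comparison by nearly the same amount, so this difference is bound to be alike under TMM and library totals. By library totals the family's own median was -0.59, -0.25, -0.25 and -0.27 in that order. Left-out libraries took the call from at most 2 genes of those called in any of the 4 mutants.

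**Figure D2:**
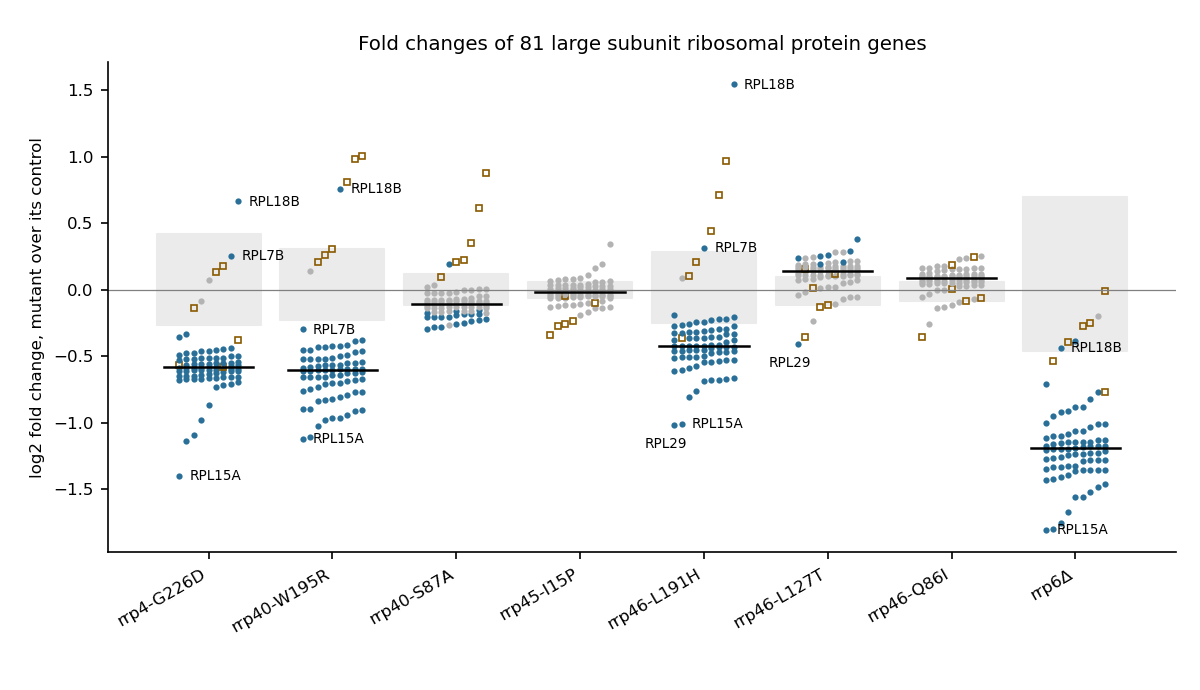
log2 fold change (vertical axis) of each of the 81 genes in each mutant over its control. Filled blue points passed an adjusted p of 0.05, grey points did not, open squares are 6 genes with under 1000 counts on average, black bars are medians over the 81 genes and grey boxes hold the middle of all features tested, between the quartiles. Most genes form one tight block below 0 in rrp6Δ, rrp46-L191H, rrp40-W195R and rrp4-G226D, with RPL15A at the lower end and RPL18B above the block.

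Some of the genes at the lower end recurred in all 4 mutants, and ranks were not compared by a test. RPL29, with the largest fall in rrp46-L191H, lay close to the family's median in rrp4-G226D. RPL15A encodes a core protein of the subunit (chrXII:201976-202590, minus strand) and had the largest fall of the family in 3 of the 4 mutants and the next largest in rrp46-L191H. It had 476, 533 and 498 CPM in rrp6Δ, against 1712, 1874 and 1725 CPM in RRP6, and 692, 685 and 657 CPM in rrp4-G226D, against 1726, 1772 and 1913 CPM in RRP4. It had 878, 1099 and 1059.6 CPM in rrp40-W195R, against 2110.0, 2174 and 2224 CPM in RRP40, and 1246, 1152 and 1209 CPM in rrp46-L191H, against 2382, 2378 and 2492 CPM in RRP46. No mutant library overlapped with its controls, and the gap was widest in rrp6Δ. The log2 fold change was -1.80 (SE 0.059, adjusted p = 2.34e-13) in rrp6Δ, -1.01 (SE 0.0481, adjusted p = 3.75e-09) in rrp46-L191H, -1.40 (SE 0.0476, adjusted p = 4.76e-15) in rrp4-G226D and -1.12 (SE 0.0812, adjusted p = 2.09e-06) in rrp40-W195R.

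RPL3 encodes the protein nearest the peptidyl transferase centre that is brought to pre-ribosomes by the chaperone Rrb1 (chrXV:444686-445849, plus strand), and was among the 4 largest falls in all 4 mutants. It had 763, 822 and 817 CPM in rrp6Δ, against 2799.8, 2677 and 2696 CPM in RRP6, and 1477, 1538 and 1563 CPM in rrp4-G226D, against 3336, 3488 and 3327 CPM in RRP4. Its log2 fold changes were -1.75 in rrp6Δ, -0.76 in rrp46-L191H, -1.14 in rrp4-G226D and -1.11 in rrp40-W195R, with adjusted p between 5.72e-14 and 8.99e-07. RPL4A and RPL4B encode another early-binding core protein, the client of the chaperone Acl4. RPL4A changed by -1.52 in rrp6Δ, -0.67 in rrp46-L191H, -0.87 in rrp4-G226D and -0.97 in rrp40-W195R. RPL4B changed by -1.67 in rrp6Δ, -0.81 in rrp46-L191H, -0.98 in rrp4-G226D and -0.91 in rrp40-W195R, so both copies lay below the family's median in each of the 4.

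Among the single-copy genes the median was -1.24 in rrp6Δ, -0.46 in rrp46-L191H, -0.57 in rrp4-G226D and -0.66 in rrp40-W195R. Without RPL28 and RPL39, which averaged under 1000 counts, it was -1.26, -0.54, -0.59 and -0.83 in the same order. RPL10 encodes a protein that joins late in the cytoplasm with the chaperone Sqt1, and changed by -1.46 in rrp6Δ, -0.42 in rrp46-L191H, -0.68 in rrp4-G226D and -0.94 in rrp40-W195R. RPL5 encodes a partner of the 5S ribosomal RNA, and changed by -1.16 in rrp6Δ, -0.46 in rrp46-L191H, -0.59 in rrp4-G226D and -0.46 in rrp40-W195R. RPL30, whose protein represses splicing of its own transcript, changed by -1.36 in rrp6Δ, -0.69 in rrp46-L191H, -0.73 in rrp4-G226D and -0.98 in rrp40-W195R. RPL25, RPL32 and RPL38 were lower in all 4 mutants as well, at -1.24, -1.20 and -1.13 in rrp6Δ. In rrp40-W195R the call of RPL38 was lost without rrp40-W195R replicate 3 (adjusted p = 0.0539), and by library totals the calls of RPL32 and RPL38 there were lost.

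RPL29 encodes a small protein of the subunit that is not essential for growth, and it also fell in rrp46-L127T, where most of the family did not. It had 115, 149 and 126 CPM in rrp46-L191H, 196, 195.2 and 207 CPM in rrp46-L127T and 176, 262 and 226.2 CPM in rrp46-Q86I, against 267, 241 and 283 CPM in RRP46. Every rrp46-L191H and rrp46-L127T library was below every control, and the rrp46-Q86I libraries were scattered and overlapped with the controls. The log2 fold change was -1.02 (SE 0.102, adjusted p = 9.02e-05) in rrp46-L191H and -0.41 (SE 0.0613, adjusted p = 0.00849) in rrp46-L127T. In the other mutants with a lower family share it was -1.26 in rrp6Δ, -0.90 in rrp40-W195R and -0.56 in rrp4-G226D, the last of which lost its call without rrp4-G226D replicate 1 (adjusted p = 0.0509) and by library totals.

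The stalk genes encode the base of the stalk and the acidic proteins that recruit translation factors. The median over the 5 was -1.06 in rrp6Δ, -0.25 in rrp46-L191H, -0.46 in rrp4-G226D and -0.43 in rrp40-W195R, against -1.19, -0.42, -0.58 and -0.60 over the 81 genes. No test was made between the stalk genes and the others. RPP0, the base of the stalk, changed by -1.26 in rrp6Δ, -0.25 in rrp46-L191H, -0.46 in rrp4-G226D and -0.83 in rrp40-W195R, which is more than the median of the 81 in rrp6Δ and rrp40-W195R and less in the other two, and the rrp46-L191H call was lost without replicate 1 or replicate 2 of rrp46-L191H or of RRP46 (adjusted p = 0.0933, 0.0987, 0.0758 and 0.0934). RPP1A changed by -1.06 in rrp6Δ, -0.21 in rrp46-L191H, -0.33 in rrp4-G226D and -0.43 in rrp40-W195R, with a value of 0.00077 in rrp4-G226D by library totals. RPP1B changed by -1.08 in rrp6Δ, -0.29 in rrp46-L191H, -0.54 in rrp4-G226D and -0.42 in rrp40-W195R, and RPP2A by -1.03 in rrp6Δ, -0.32 in rrp46-L191H, -0.52 in rrp4-G226D and -0.55 in rrp40-W195R. The calls of RPP1A in rrp40-W195R and rrp46-L191H and of RPP1B in rrp40-W195R were lost by library totals.

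RPP2B stood apart from the other 4 stalk genes in rrp6Δ, rrp4-G226D and rrp40-W195R, while in rrp46-L191H it lay within their range. It was -0.38 in rrp6Δ (adjusted p = 2.54e-06), a call whose sign turned to 0.22 by library totals, and -0.22 in rrp46-L191H (adjusted p = 0.00313). In rrp4-G226D and rrp40-W195R it was 0.075 and 0.14 and did not pass the test (adjusted p = 0.139 and 0.0581).

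Copies of the protein pairs with a special use moved with the family. RPL40A, which encodes ubiquitin fused to a ribosomal protein, changed by -1.17 in rrp6Δ, -0.24 in rrp46-L191H, -0.52 in rrp4-G226D and -0.55 in rrp40-W195R, and by library totals its rrp46-L191H call was lost. RPL41A and RPL41B encode the shortest protein of the ribosome and were lower in all 4 mutants, at -0.88 and -1.10 in rrp6Δ. The call of RPL41B in rrp40-W195R was lost without rrp40-W195R replicate 3 (adjusted p = 0.0805), and by library totals both lost that call. RPL11A and RPL11B encode the other 5S RNA partner and were at -1.15 and -1.55 in rrp6Δ. RPL2A changed by -1.56 in rrp6Δ, -0.45 in rrp46-L191H, -0.67 in rrp4-G226D and -0.68 in rrp40-W195R. RPL2B changed by -1.20 in rrp6Δ, -0.36 in rrp46-L191H, -0.63 in rrp4-G226D and -0.60 in rrp40-W195R.

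RPL18B gave the clearest departure from the common fall. It encodes a protein of the subunit (chrXIV:63570-64562, minus strand) and was higher in 3 of the 4 mutants. RPL18B had 625, 601 and 612 CPM in rrp46-L191H, against 211, 215 and 203 CPM in RRP46. It had 414, 434 and 417 CPM in rrp4-G226D, against 269, 261 and 275 CPM in RRP4. It had 372, 353 and 388 CPM in rrp40-W195R and 206, 207 and 221 CPM in rrp40-S87A, against 220.2, 209 and 219 CPM in RRP40. All rrp46-L191H, rrp4-G226D and rrp40-W195R libraries were above their controls, while rrp40-S87A overlapped with them. In rrp6Δ the direction differed, with 179.8, 187 and 194 CPM in rrp6Δ, against 252, 265 and 249 CPM in RRP6.

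The log2 fold change of RPL18B was 1.54 (SE 0.0412, adjusted p = 5.43e-11) in rrp46-L191H, 0.66 (SE 0.0393, adjusted p = 1.38e-11) in rrp4-G226D and 0.76 (SE 0.0536, adjusted p = 1.87e-06) in rrp40-W195R. It fell by 0.43 in rrp6Δ (SE 0.0471, adjusted p = 2.69e-07) by TMM, and was 0.17 by library totals.

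**Figure D3:**
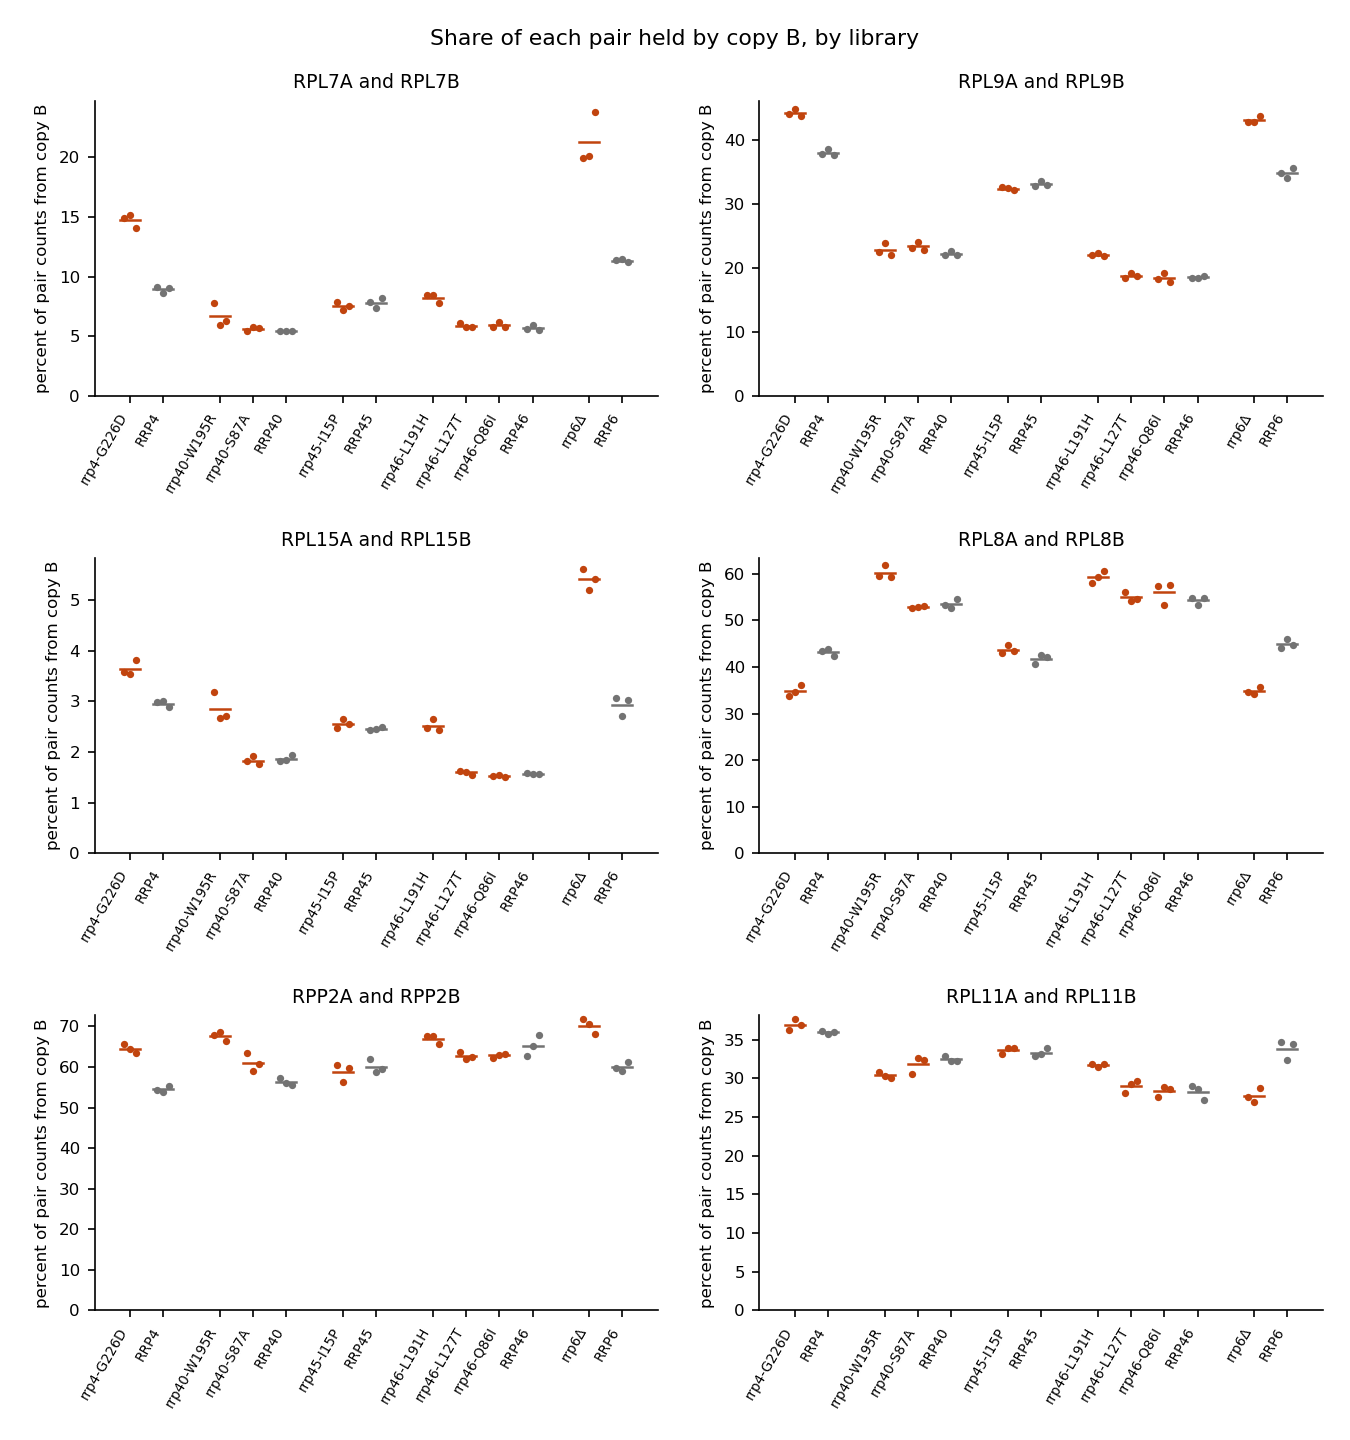
Share of a pair's counts taken by copy B (%, vertical axes) for 6 pairs, 1 point per library with each mutant left of its control. RPL7B took 19.9% or more of RPL7 counts in rrp6Δ and 11.5% or less in RRP6, and the RPL8B share moved in opposite directions in different mutants.

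Copy ratios were tested for all pairs with limma on log2 ratios, which need no scaling between libraries. Of 35 large subunit pairs, the ratio changed in 27 in rrp6Δ, where 67.2% of all such gene pairs were called. It changed in 19 of 34 in rrp46-L191H (51.7% of all pairs), in 19 of 34 in rrp40-W195R (56.7%) and in 16 of 35 in rrp4-G226D (41%). The counts for the large subunit are near those shares, and the large subunit pairs are themselves 35 of the 62 pairs in the count files. The ratio moved toward copy A in 14 pairs and toward copy B in 13 in rrp6Δ, 10 and 9 in rrp46-L191H, 6 and 10 in rrp4-G226D, and 8 and 11 in rrp40-W195R. Most changes were small, with a median size of 0.215 in rrp6Δ, 0.121 in rrp46-L191H, 0.102 in rrp4-G226D and 0.171 in rrp40-W195R. Without the 4 pairs that hold a gene of under 1000 counts on average, 23, 17, 14 and 16 of 31 pairs were called in the same mutants, with 11, 8, 4 and 6 toward copy A and 12, 9, 10 and 10 toward copy B. Without rrp4-G226D replicate 2, the count for rrp4-G226D was 10 in place of 16. The ratios of RPL1, RPL7, RPL8, RPL15, RPL16, RPL22 and RPL33 were among those called in all 4 mutants, and those of RPL21, RPL26 and RPL34 in none.

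Both copies were called in the same direction in 33 of 35 pairs in rrp6Δ (93.4% of all A and B pairs tested) and in 29 of 35 in each of rrp46-L191H (83.6% of all pairs), rrp40-W195R (88.5%) and rrp4-G226D (83.6%). These shares are near those of all pairs. Both were called in opposite directions in 0, 3, 4 and 2 pairs of these mutants, against 3.28%, 8.2%, 6.56% and 4.92% of all pairs. Of the pairs with a changed ratio, both copies were lower in 25 of 27 in rrp6Δ, 15 of 19 in rrp46-L191H, 11 of 16 in rrp4-G226D and 14 of 19 in rrp40-W195R. Most ratio changes in this family thus lay between falls of unequal size. Nearly the whole family was called lower in these mutants, so these counts do not set the pairs with a changed ratio apart. The share over all A and B pairs is not given here.

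In RPL7 copy B gained on copy A in the 4 mutants. RPL7A and RPL7B encode nearly the same protein and hold 2 introns each. RPL7B (chrXVI:173152-174702, plus strand) had 139, 151 and 139.7 CPM in rrp4-G226D, against 116, 124 and 122 CPM in RRP4. It had 106, 102 and 101 CPM in rrp46-L191H, against 83.3, 83.6 and 81.3 CPM in RRP46, and 95.8, 103 and 125 CPM in rrp6Δ, against 129.8, 125 and 119.9 CPM in RRP6. The rrp4-G226D and rrp46-L191H libraries were above their controls and the rrp6Δ libraries overlapped with theirs. RPL7B rose by 0.25 in rrp4-G226D (adjusted p = 1.91e-05) and 0.31 in rrp46-L191H (adjusted p = 1.67e-05), and was -0.19 in rrp6Δ (adjusted p = 0.0889). In rrp40-W195R it was -0.30 (adjusted p = 0.00377) by TMM and 0.035 by library totals.

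RPL7B took 19.9, 20.1 and 23.8% in rrp6Δ, against 11.4, 11.5 and 11.2% in RRP6 of the counts of the pair. It took 14.9, 15.1 and 14.1% in rrp4-G226D, against 9.11, 8.65 and 9.03% in RRP4, and 8.45, 8.47 and 7.81% in rrp46-L191H, against 5.61, 5.95 and 5.55% in RRP46. The log2 ratio of RPL7A to RPL7B changed by -1.08 in rrp6Δ, -0.57 in rrp46-L191H, -0.81 in rrp4-G226D and -0.30 in rrp40-W195R, with adjusted p of 1.56e-07, 4.34e-05, 3.82e-06 and 0.0133 in that order. The copies match at 96.7% of coding bases, with an identical run of 245 bases. The introns of RPL7A and RPL7B hold the genes of the small nucleolar RNAs SNR39 and SNR59, and from these counts reads of an intron and of the RNA inside it cannot be told apart.

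In RPL15 the minor copy was less affected than the major one. RPL15B took 5.62, 5.20 and 5.41% in rrp6Δ, against 3.07, 2.71 and 3.02% in RRP6, and 2.46, 2.65 and 2.43% in rrp46-L191H, against 1.57, 1.56 and 1.56% in RRP46. The log2 ratio of RPL15A to RPL15B changed by -0.92 in rrp6Δ, -0.70 in rrp46-L191H, -0.31 in rrp4-G226D and -0.63 in rrp40-W195R, with adjusted p between 3.48e-06 and 0.00297. Both copies were lower in all 4 mutants.

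RPL9B, whose 3′ end formation is known to be regulated through premature termination by the Nrd1 pathway, gained on RPL9A in 3 mutants. It took 42.8, 42.8 and 43.7% in rrp6Δ, against 34.8, 34.0 and 35.5% in RRP6, and 44.0, 44.7 and 43.8% in rrp4-G226D, against 37.8, 38.5 and 37.7% in RRP4. It took 22.0, 22.2 and 21.8% in rrp46-L191H, against 18.4, 18.5 and 18.6% in RRP46, and 22.5, 23.8 and 21.9% in rrp40-W195R, against 22.0, 22.6 and 22.0% in RRP40. The ratio of RPL9A to RPL9B changed by -0.51, -0.37 and -0.31 in rrp6Δ, rrp4-G226D and rrp46-L191H, and was -0.046 in rrp40-W195R (adjusted p = 0.559). RPL9B itself was lower, by -0.77, -0.35, -0.19 and -0.65 in the same order, and by library totals its calls in rrp4-G226D and rrp46-L191H were lost.

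The ratio of the RPL8 copies changed in opposite directions in different mutants. RPL8A (chrVIII:35255-36025, minus strand) had 494, 528 and 552 CPM in rrp40-W195R, against 1059.7, 1060.3 and 1038 CPM in RRP40, far apart in every library. It had 1006, 1015 and 989 CPM in rrp4-G226D, against 1051, 1052 and 1119.6 CPM in RRP4, all slightly below the control libraries. RPL8A was -0.087 in rrp4-G226D (adjusted p = 0.071) by TMM and 0.24 by library totals, where RPL8B was -0.59 by TMM. RPL8A was -1.03 in rrp40-W195R, where RPL8B was -0.63. RPL8B took 34.7, 34.1 and 35.6% in rrp6Δ, against 44.1, 46.0 and 44.8% in RRP6, and 33.8, 34.7 and 36.1% in rrp4-G226D, against 43.5, 43.8 and 42.3% in RRP4. It took 59.5, 62.0 and 59.2% in rrp40-W195R, against 53.3, 52.7 and 54.7% in RRP40, and 58.0, 59.4 and 60.7% in rrp46-L191H, against 54.9, 53.3 and 54.8% in RRP46. Copy B thus had a smaller share than its control in rrp6Δ and rrp4-G226D and a larger one in rrp40-W195R and rrp46-L191H. The controls did not start level, as RPL8B averaged 43.2% in RRP4 and 45.0% in RRP6, against 53.5% in RRP40 and 54.4% in RRP46. Strain and allele cannot be told apart in these opposite directions. The log2 ratio of RPL8A to RPL8B changed by 0.62 in rrp6Δ, -0.29 in rrp46-L191H, 0.51 in rrp4-G226D and -0.40 in rrp40-W195R, with an adjusted p of 0.000907 in rrp46-L191H and lower in the other mutants.

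RPL11 and RPL37 likewise had ratios that changed in opposite directions between rrp6Δ and rrp46-L191H. RPL11B took 27.6, 26.98 and 28.7% in rrp6Δ, against 34.8, 32.4 and 34.4% in RRP6, and 31.9, 31.5 and 31.9% in rrp46-L191H, against 29.0, 28.6 and 27.2% in RRP46. The log2 ratio of RPL11A to RPL11B changed by 0.41 in rrp6Δ (adjusted p = 1.6e-05) and -0.24 in rrp46-L191H (adjusted p = 0.000907). RPL37B took 59.4, 61.6 and 63.2% in rrp6Δ, against 70.3, 68.5 and 68.7% in RRP6, and 72.0, 71.2 and 70.9% in rrp46-L191H, against 66.7, 67.2 and 65.8% in RRP46. The log2 ratio of RPL37A to RPL37B changed by 0.50 in rrp6Δ (adjusted p = 1.43e-05) and -0.32 in rrp46-L191H (adjusted p = 0.00048). In both pairs the copy B share was smaller than in the controls in one mutant and larger in the other. Here too strain and allele cannot be told apart.

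The copies of RPP2 match at 73.6% of coding bases, fewer than in most pairs. RPP2B took 71.8, 70.5 and 68.0% in rrp6Δ, against 59.7, 59.0 and 61.2% in RRP6, and 65.6, 64.3 and 63.4% in rrp4-G226D, against 54.4, 53.9 and 55.4% in RRP4. It took 67.8, 68.5 and 66.4% in rrp40-W195R and 63.3, 59.0 and 60.8% in rrp40-S87A, against 57.3, 56.1 and 55.6% in RRP40. The ratio of RPP2A to RPP2B changed by -0.65 in rrp6Δ, -0.69 in rrp40-W195R, -0.28 in rrp40-S87A and -0.59 in rrp4-G226D (adjusted p = 0.00797 in rrp40-S87A). In rrp46-L191H it was -0.10 and did not pass (adjusted p = 0.306).

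**Figure D4:**
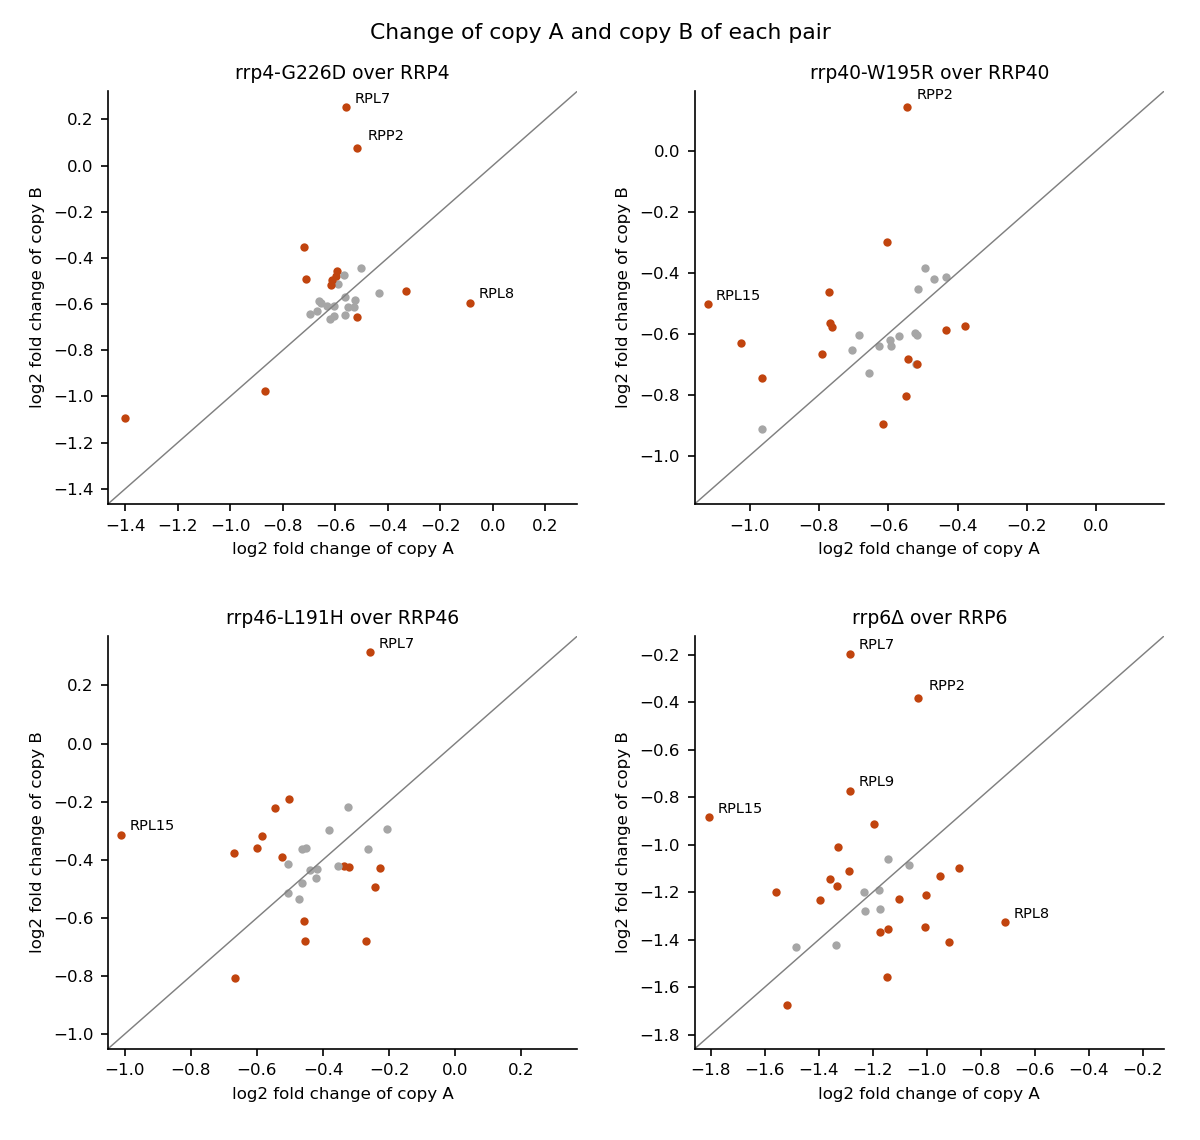
log2 fold change of copy B (vertical axis) against copy A (horizontal axis) for 30 large subunit pairs with ordinary counts, 1 panel per mutant, with the diagonal where both change alike. Most pairs lie along the diagonal below 0, and RPL8 lies below it in rrp6Δ, with -0.71 for copy A and -1.32 for copy B.

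A small set of 6 genes, RPL22A, RPL28, RPL33A, RPL36B, RPL39 and RPL43A, had a mean of under 1000 counts. Per kilobase of coding sequence they stood at 9.48 to 56.5 CPM in controls, against 79.6 or more in every other gene of the family and a median of 1641. These genes are widely known as well expressed, RPL28 as the target of cycloheximide resistance and RPL39 at the exit of the peptide tunnel, so their counts are not read here as expression levels, and what keeps them low was not tested. All 6 hold an intron, as do 53 of the 81, and none overlaps another gene of the R64 annotation. Overlap with features of the count files that are outside this annotation was not checked. In rrp40-W195R, RPL36B was 1.01, RPL43A 0.99 and RPL22A 0.81, all called higher. In rrp46-L191H, RPL43A was 0.97, RPL22A 0.71 and RPL28 0.44, all called higher. In rrp6Δ their median was -0.33, with 5 of 6 called lower by TMM, but by library totals RPL22A was 0.33, RPL28 0.35 and RPL43A 0.066. The partner RPL43B has ordinary counts and had 181, 200.1 and 201 CPM in rrp6Δ, against 686, 711 and 649 CPM in RRP6, a log2 fold change of -1.80 (SE 0.0559, adjusted p = 1.54e-13). The ratio changes of RPL36 (-1.82 in rrp40-W195R and -1.35 in rrp6Δ) and RPL43 (1.27 in rrp6Δ) rest on such low copies.

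With these genes set aside, 5 stood outside the set that was lower in all 4 mutants: RPL7B, RPL8A, RPL18B, RPL22B and RPP2B. RPL22B, whose splicing is blocked by its own protein product, was 0.086 in rrp46-L191H and did not pass the test (adjusted p = 0.228), but was -0.82 in rrp6Δ, -0.65 in rrp40-W195R and -0.64 in rrp4-G226D.

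The remaining missense alleles had small effects on the family. In rrp40-S87A 19 genes were lower and 2 higher, with 7.8% of all features called lower and 7.69% higher, and the median was -0.11. RPL36A and RPL40B had the largest falls, at -0.30 (SE 0.0513, adjusted p = 0.00207) and -0.28 (SE 0.0571, adjusted p = 0.00511). The 2 higher were RPP2B at 0.19 and the low-count RPL43A at 0.88. RPP2B lost its call without replicate 1 or 3 of rrp40-S87A or replicate 2 or 3 of RRP40 (adjusted p of 0.108, 0.134, 0.159 and 0.0947), and RPL43A without rrp40-S87A replicate 3 (0.0677). The count was less firm than in rrp40-W195R, which shares its controls: it was 6 without rrp40-S87A replicate 3 or without RRP40 replicate 2, and 11 without RRP40 replicate 3. The copy ratio changed in 6 of 33 pairs (16.9% of all pairs), and in 0 without RRP40 replicate 3, 2 without replicate 2 and 3 without replicate 1.

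In rrp46-L127T the direction was the other one. The median was 0.14, and 7 genes were higher (RPL7B, RPL10, RPL18B, RPL22B, RPL36A and RPL37B among them) and RPL29 lower, with 2.63% and 2.62% of all features called. RPL22B had 44.1, 41.1 and 45.3 CPM in rrp46-L127T, against 31.6, 33.1 and 35.1 CPM in RRP46, with no overlap, and rose by 0.38 (SE 0.0623, adjusted p = 0.0121), a call that was lost without RRP46 replicate 2 (adjusted p = 0.0567). RPL10 rose by 0.29 (SE 0.0526, adjusted p = 0.0164), and lost its call without rrp46-L127T replicate 2 or 3 or RRP46 replicate 2 or 3 (adjusted p of 0.0700, 0.0504, 0.0663 and 0.0507). All libraries lay above all controls for 48 of the 81 genes and for 14.7% of all features tested, and 44 genes had an unadjusted p under 0.05, as did 21.8% of all features. The count of called genes was 8 with the test used throughout, 28 with DESeq2 (10.3% of all features) and 33 in a fit of all 39 libraries (13.5% of all features). It was 2 or 3 without rrp46-L127T replicate 2 or 3 and 1 or 4 without RRP46 replicate 2 or 3.

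In rrp46-Q86I and rrp45-I15P edgeR called 0 of the 81 genes. Of all features, 0.515% were called in rrp46-Q86I and 0.0266% in rrp45-I15P. Unadjusted p was under 0.05 for 22 genes in rrp46-Q86I (13% of all features), where DESeq2 called 6 (2.26% of all features). It was under 0.05 for 14 genes in rrp45-I15P (9.77% of all features), where DESeq2 called 2, RPL29 and RPL38 (0.613% of all features). The medians were 0.089 and -0.020. Copy ratios were called in 1 of 34 pairs in rrp46-Q86I (1.67% of all pairs), RPL37 at -0.24 (adjusted p = 0.00748). They were called in 0 of 35 in rrp45-I15P and 0 of 34 in rrp46-L127T, where limma also called 0% of all pairs and unadjusted p was under 0.05 for 2 and 4 large subunit pairs (9.84% and 15% of all pairs).

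Alleles of the same subunit were also set directly against each other. In rrp40-W195R 73 genes were lower and 1 higher than in rrp40-S87A, where 20.2% and 18.6% of all features were called, with a median of -0.46. In rrp46-L191H 72 genes were lower and 5 higher than in rrp46-Q86I (31.8% and 32.5%), with a median of -0.48. It had 73 lower and 4 higher than rrp46-L127T (25.9% and 25.6%), with a median of -0.54. Between rrp46-L127T and rrp46-Q86I 0 genes were called by edgeR (0.604% of all features), 6 had an unadjusted p under 0.05, and the median difference was 0.052.

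The fall was deeper in rrp6Δ than in rrp46-L191H, rrp40-W195R or rrp4-G226D. Tested as the rrp6Δ effect minus the missense effect, 75 genes were lower and 1 higher against rrp4-G226D (27.2% and 21.4% of all features), with a median of -0.59. Against rrp40-W195R 77 were lower and 1 higher (33.3% and 28.1%), with a median of -0.60, and against rrp46-L191H 77 were lower and 0 higher (35.7% and 35.6%), with a median of -0.79. The exceptions were RPL15B, at 0.24 against rrp4-G226D (adjusted p = 0.00365), and RPL8A, at 0.32 against rrp40-W195R (adjusted p = 0.0021). These families differ in mating type and markers, so strain and allele cannot be told apart in these differences.

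The small subunit genes and the genes that serve the family gave a partly different picture. Of 57 small subunit genes, 55 were lower and 2 higher in rrp6Δ (median -1.26), 54 and 2 in rrp46-L191H (-0.44), 56 and 0 in rrp40-W195R (-0.64) and 54 and 1 in rrp4-G226D (-0.58). The 7 genes for dedicated chaperones and factors of the 5S particle were all lower in rrp6Δ, with SYO1, which escorts Rpl5 and Rpl11, at -1.20 and RRB1, the chaperone of Rpl3, at -0.90. They were all lower in rrp4-G226D too. In rrp46-L191H all 7 were higher, with SYO1 at 0.65, RRS1 at 0.60 and SQT1 at 0.58. In rrp40-W195R 3 of 7 were higher and none was lower. The chaperone genes thus went down with their clients in rrp6Δ and rrp4-G226D and up in rrp46-L191H, where the clients fell. The controls did not start level, as all 7 averaged lower in RRP46 than in RRP4 and RRP6. SYO1 averaged 61.9 CPM in RRP46 and 97.6 CPM in rrp46-L191H, against 165 CPM in RRP4 and 137 CPM in RRP6. Strain and allele cannot be told apart in these opposite signs.

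Of 9 regulators 8 were tested. IFH1, the coactivator of these promoters, was higher in rrp6Δ (0.20), rrp46-L191H (0.67), rrp40-W195R (0.67) and rrp4-G226D (0.24). HMO1, a high-mobility-group protein found at these promoters and at ribosomal DNA, was lower in the same mutants, at -1.15, -0.52, -0.35 and -0.74. TOD6, a repressor of ribosome biogenesis genes, was 1.04 in rrp40-W195R and 0.90 in rrp46-L191H, and -0.058 in rrp6Δ and 0.069 in rrp4-G226D, where it did not pass the test (adjusted p = 0.224 and 0.177). TOD6 averaged 53.1 CPM in RRP40 and 55.5 CPM in RRP46, against 152 CPM in RRP4 and 146 CPM in RRP6. In rrp40-W195R and rrp46-L191H it averaged 111 and 104 CPM, below the RRP4 and RRP6 controls. IFH1 likewise averaged 124 CPM in RRP40 and 107 CPM in RRP46, against 252 CPM in RRP4 and 256 CPM in RRP6. In all, 2 of 8 were higher and 4 lower in rrp6Δ, 2 and 3 in rrp46-L191H, 5 and 3 in rrp40-W195R, and 2 and 3 in rrp4-G226D. RLP7 and RLP24, assembly factors related to large subunit proteins, were both lower in rrp6Δ and rrp4-G226D and both higher in rrp46-L191H. Both also averaged lower in the RRP46 control than in RRP4 and RRP6.

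Genes with and without an intron, and with and without a promoter motif, had medians close to each other, given here as descriptions with no test. The median was -1.17 for genes with an intron and -1.22 for those without in rrp6Δ, -0.38 and -0.48 in rrp46-L191H, -0.57 and -0.59 in rrp4-G226D and -0.59 and -0.67 in rrp40-W195R. Copies A and B had medians of -1.17 and -1.19 in rrp6Δ. The letters CACCCNNACA, a form of the Rap1 binding motif, were searched on both strands in the 600 bases before each start codon. They occurred in 21 of 81 family promoters (25.9%) and in 152 of 6018 promoters (2.53%). The matches of RPL7A and RPL8A are shown because their partners RPL7B and RPL8B have none in the same window, with the motif in capitals on the gene's strand.
RPL7A, chrVII:366229-366258, minus strand: atcatataaaCACCCACACAtatctataaa
RPL8A, chrVIII:36246-36275, minus strand: atgaagaaaaCACCCAAACAtatctaggcc
The median change was -1.14 for genes with the motif and -1.20 for those without in rrp6Δ, -0.42 and -0.42 in rrp46-L191H, -0.60 and -0.60 in rrp40-W195R, and -0.55 and -0.59 in rrp4-G226D. RPL18B, RPL15A and RPL15B had no match, which says only that these letters are not in those windows.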

How the data were processed

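RNA was depleted of ribosomal RNA and made into libraries with the Zymo-Seq RiboFree kit, per the labels' protocols. The deposited values are whole-number counts per feature, made by the authors. STAR, featureCounts 1.22.2, StringTie 2.1.7 and DESeq2 1.38.1 and the build R64 are named in the submitters' processing notes. Strand and multi-mapping settings are not given in the sources used here. The tables of fold changes were not used.

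Counts were tested per mutant and control with edgeR 4.0.16 in R 4.3.3 (filterByExpr, TMM, quasi-likelihood test, Benjamini-Hochberg over all features, adjusted p under 0.05), and alleles and effects of 2 mutants likewise. CPM values are scaled by TMM over all 39 libraries. Copy ratios were log2 ratios of counts plus 0.5, for pairs with a mean of at least 50 counts per copy, tested with limma 3.58.1 over all A and B pairs. The edgeR and limma tests of a mutant against its control were tried on simulated data, and the other tests were not. DESeq2 1.42.0, other scalings, filters, fits and left-out libraries were the alternatives.

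Genes and lists were chosen with earlier results of these data known. Named genes are, per comparison, the called genes of at least 10 CPM with the 2 highest and 2 lowest fold changes, the 2 pairs with the largest ratio change, single-copy genes, genes with known special roles and those called against the majority. RPL4A, RPL4B, RPL37B, the pairs RPL8, RPL9, RPL11, RPL37 and RPP2 and the lists of genes and pairs called in all or none of 4 mutants were picked after their values were seen. Motifs were searched in R64 by name and strand, with 6048 features matched by locus tag. One gene of the family, and the results that need it, are not reported here.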

Additional observations from a re-analysis of the deposited data

Results flagged for a closer look

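The rrp6Δ effect differed from the missense effects in most of the family, and in a large share of all features too. The interaction was called for 76 genes against rrp4-G226D, where 27.2% of all features were called lower and 21.4% higher. It was called for 78 genes against rrp40-W195R (33.3% and 28.1% of all features) and for 77 against rrp46-L191H (35.7% and 35.6%). For some genes the effects were called in opposite directions and their difference was called as well. RPL18B, lower in rrp6Δ and higher in the missense mutants, differed by -1.07 from rrp4-G226D, -1.19 from rrp40-W195R and -1.98 from rrp46-L191H, on the log2 scale. By library totals the rrp6Δ change of RPL18B is 0.17, so the opposite sign rests on the scaling.

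The same held for genes of under 1000 counts on average. RPL22A differed by -1.08 from rrp40-W195R and -0.98 from rrp46-L191H, RPL43A by -1.52 and -1.50, and RPL28 by -0.69 from rrp46-L191H. The rrp6Δ call of RPL22A was lost without rrp6Δ replicate 1 (adjusted p = 0.0671) or RRP6 replicate 2 (adjusted p = 0.0733). By library totals the rrp6Δ changes of the 3 genes are 0.33, 0.066 and 0.35.

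Ratios of copy A to copy B, which need no scaling, also changed in opposite directions, in rrp6Δ minus the missense mutant. RPL8 differed by 1.01 from rrp40-W195R (adjusted p = 8.01e-09) and 0.91 from rrp46-L191H (adjusted p = 9.39e-08). RPL1, whose copies match at 99.4% of coding bases, differed by -0.44 from rrp40-W195R and -0.36 from rrp46-L191H. RPL14 differed by 0.31 from rrp4-G226D. Against rrp46-L191H, RPL11 differed by 0.65, RPL17 by -0.39 and RPL37 by 0.82. The limma contrasts behind these values were added after the data were seen. The families differ in strain, so strain and allele cannot be told apart in these ratio differences.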

How the results depend on the processing

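Of the alternatives that leave out no library, 236 values were classed as unchanged and 26 as moved. Unchanged meant within 1.5 times for a count, within 1 SD for a median and only the same sign for a share. For single genes picked by the stated rules, each called comparison was counted once per alternative. Of these entries 1069 kept the call, 99 lost it or fell short of 1.5-fold, and 7 changed sign. Requiring a 1.5-fold change left 41 genes in rrp4-G226D, 50 in rrp40-W195R, 1 in rrp40-S87A, 15 in rrp46-L191H, 0 in rrp46-L127T, 17, 21 and 33 in rrp40-W195R over rrp40-S87A, rrp46-L191H over rrp46-Q86I and rrp46-L191H over rrp46-L127T, and 44 each for rrp6Δ minus rrp4-G226D and minus rrp40-W195R. The share of all features at this threshold is not given here, so these counts do not set the family against the other features. By library totals the medians were -0.25 in rrp4-G226D, -0.27 in rrp40-W195R, -0.053 in rrp40-S87A (9 genes called), -0.25 in rrp46-L191H and -0.59 in rrp6Δ. With protein-coding features only they were -0.48 in rrp4-G226D and -1.01 in rrp6Δ. DESeq2 called 2 genes in rrp45-I15P, 28 in rrp46-L127T and 6 in rrp46-Q86I, and the fit of all libraries 33 in rrp46-L127T and 3 in rrp46-Q86I. Signs turned by library totals for RPL18B (0.17), RPL22A (0.33), RPL28 (0.35), RPL43A (0.066) and RPP2B (0.22) in rrp6Δ, RPL7B (0.035) in rrp40-W195R and RPP1A (0.00077) in rrp4-G226D. The cause was not tested.

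Leaving out each library gave 6 to 26 genes in rrp40-S87A, 0 to 2 in rrp45-I15P (2 without rrp45-I15P replicate 1), 1 to 12 in rrp46-L127T, 0 to 4 in rrp46-Q86I (4 without RRP46 replicate 1, 1 without replicate 3) and 0 to 2 between rrp46-L127T and rrp46-Q86I (2 without rrp46-L127T replicate 1). For pairs it gave 10 to 16 in rrp4-G226D, 0 to 8 in rrp40-S87A, 0 to 1 in rrp46-L127T (1 without rrp46-L127T or RRP46 replicate 1) and 0 to 2 in rrp46-Q86I (0 without rrp46-Q86I replicate 2 or 3, 2 without RRP46 replicate 3). Replicate numbers did not pair the libraries, with correlations of their deviations between -0.094 and 0.099. The replicate block called 2 genes in rrp45-I15P, 1 in rrp46-Q86I and 3 pairs in rrp40-S87A.

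Copies that match at over 98% of coding bases form 5 pairs, and how reads that match both copies were counted is not given in the sources used here.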

Other observations

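The control strains themselves used the copies in different proportions, without any mutant in the comparison. On average over 3 libraries, RPL9B took 38.0% in RRP4, 22.2% in RRP40, 33.1% in RRP45, 18.5% in RRP46 and 34.8% in RRP6 of the counts of RPL9. RPL8B took 43.2% in RRP4, 53.5% in RRP40, 41.8% in RRP45, 54.4% in RRP46 and 45.0% in RRP6. RPL14B took 42.03% in RRP4, 35.7% in RRP40, 37.8% in RRP45, 31.5% in RRP46 and 41.0% in RRP6, and RPL7B 8.93% in RRP4, 5.45% in RRP40, 7.79% in RRP45, 5.70% in RRP46 and 11.3% in RRP6. In RPL9, RPL14 and RPL8 the RRP40 and RRP46 controls lay on one side and RRP4, RRP45 and RRP6 on the other, although the RRP40 strain is MATa and the RRP46 strain MATα. Each control is a strain with its own markers and plasmid, so strain and plasmid cannot be told apart, and no test was made between controls.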
